A study of Mus musculus with 12 samples.

Results

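Granulocyte-macrophage progenitors (GMPs) from mice with myeloid disease were compared with GMPs from mice without it. GMPs are committed bone marrow cells that divide and mature into neutrophils, monocytes and their relatives. The comparison used 6 of the 12 arrays of the series, namely every GMP array: the 2 whose label carries a disease, against the 4 whose label does not. Both diseased arrays held Tet2KD/KDEzh2-/- cells, 1 from mice that had developed MDS/MPN (a myelodysplastic/myeloproliferative neoplasm, in which ineffective and excessive blood formation coexist) and 1 from mice with RAEB (refractory anaemia with excess of blasts, a later form of myelodysplasia). The 4 others held Tet2KD/KDEzh2-/- cells without disease (double mutant), Ezh2-/- cells, Tet2KD/KD cells and wild-type cells. Every array, wild-type included, came from bone marrow of C57BL/6 recipient mice that had been repopulated with donor fetal liver cells. The Tet2 allele is a knockdown (hypomorph), so that some Tet2 transcript can remain, and the Ezh2 allele is a null. The labels give neither the number, age nor sex of the mice behind an array, nor the time after transplantation, and whether host cells were removed is not given in the sources used here.

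Tet2 oxidises methylated cytosine in DNA and thereby helps to remove DNA methylation. Ezh2 is the catalytic subunit of Polycomb repressive complex 2 (PRC2), which places a repressive methyl mark on histone H3. Both genes are mutated in human myelodysplasia and related neoplasms. In healthy marrow the GMP makes the primary granule proteins of the promyelocyte, while secondary granule proteins, eosinophil granule proteins and platelet proteins are made later or in other lineages.

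Each condition was measured on 1 array, and values are log2 signals relative to the 75th percentile of that array, so that 0 means the level of that percentile and 1 unit is a doubling. Of 20284 genes with a probe, 12770 were tested, those with a brightest probe that 2 or more of the 6 GMP arrays placed well above background. Between 45.6 and 46.7% of gene spots were well above background on the diseased arrays, against 47.9 to 49.0% on the 4 others. The 4 arrays without disease correlated with each other at r = 0.982 to 0.990 over the 12770 genes. With those 4, the MDS/MPN array correlated at 0.962 to 0.977 and the RAEB array at 0.953 to 0.959. The 2 diseased GMP arrays were hybridised on 1 slide and the 4 others on another, so slide and disease cannot be told apart. The signals of Xist and of Y-linked genes had a male pattern on both diseased arrays and on the Ezh2-/- and Tet2KD/KD arrays, and a female pattern on the double mutant and wild-type arrays. Precision is limited by the number of arrays, and the 2 or 4 arrays of a side are different conditions, so the standard error (SE) measures the spread between conditions and not between mice.

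The targeted genes were read first. Tet2 was at -1.77 on the MDS/MPN array and -3.09 on the RAEB array, against -1.01, 1.51, -0.64 and 1.57 on the double mutant, Ezh2-/-, Tet2KD/KD and wild-type arrays, the order kept for every gene here. All 4 arrays labelled Tet2KD/KD were below the other 2, and the RAEB array was the lowest. The difference of diseased GMPs from GMPs without disease, whose 4 arrays mix both Tet2 genotypes, was -2.79 ± 0.88 (SE), with a limma adjusted p of 0.0793. Ezh2 was at 2.68 on the MDS/MPN array and 2.68 on the RAEB array, against 3.12, 3.35, 3.40 and 3.24. Its probe read about as high on the Ezh2-/- array as on the wild-type array; whether it lies inside the deleted part is not known here, and a probe outside that part does not check the label. The GMP label was checked on 25 GMP marker genes with a probe. Their summed signal, in multiples of the 75th percentile, was 10644 on the MDS/MPN array and 9160 on the RAEB array, against 6971 to 8882 on the 4 other GMP arrays, and it was 1199 to 2588 on the 6 LSK arrays. The number of these genes above background does not separate the cell types, since it was 24 or 25 on every GMP array and 24 on every LSK array. Mpo, the myeloperoxidase of primary granules, which like Kit and Cd34 was picked here as a defining GMP gene, was at 11.21 on the MDS/MPN array and 11.27 on the RAEB array, against 11.12, 10.86, 10.89 and 10.93. Kit and Cd34, 2 of the surface proteins by which GMPs are usually sorted, were lowest on the RAEB array. Kit was at 3.64 on the MDS/MPN array and 2.67 on the RAEB array, against 3.56, 3.73, 3.66 and 3.65. Cd34 was at 7.24 on the MDS/MPN array and 6.43 on the RAEB array, against 7.48, 7.73, 7.39 and 7.04. The Fc receptor Fcgr2b, another surface protein among the GMP markers, lay higher on both diseased arrays, as given below.

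The promoters of 8 genes on which the results turn are shown here because these genes lay higher in diseased GMPs together with a close neighbour, a paralog or a partner of the same response. Chil3 and Chil4 are neighbouring chitinase-like genes, Ear1 and Ear2 belong to a cluster of eosinophil ribonucleases, Ppbp and Pf4 are neighbouring platelet chemokines, and Chac1 and Trib3 are targets of the ATF4 response to amino acid shortage. Each window runs from 250 bases before to 30 bases after the RefSeq start of the gene on GRCm38.p6, 5′ to 3′ on the strand of the gene. The windows are chr3:106167535-106167814, minus strand for Chil3; chr3:106219450-106219729, minus strand for Chil4; chr14:43819610-43819889, minus strand for Ear1; and chr14:44102404-44102683, plus strand for Ear2. Those of the other pairs are chr5:90768268-90768547, plus strand for Ppbp; chr5:90772185-90772464, plus strand for Pf4; chr2:119350992-119351271, plus strand for Chac1; and chr2:152344031-152344310, minus strand for Trib3. Capitals mark matches, on either strand, to 4 short motifs: AGATAA (the core bound by GATA factors), AGGAAG (ETS factors), TTNNGNAA (C/EBP factors) and TGATGNAA (the composite C/EBP-ATF element).
Chil3: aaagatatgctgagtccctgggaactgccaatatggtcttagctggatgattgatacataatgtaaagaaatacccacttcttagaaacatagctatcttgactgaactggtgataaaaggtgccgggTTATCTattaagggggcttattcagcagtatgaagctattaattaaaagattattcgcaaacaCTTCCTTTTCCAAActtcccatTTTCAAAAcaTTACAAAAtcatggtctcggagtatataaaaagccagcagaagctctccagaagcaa
Chil4: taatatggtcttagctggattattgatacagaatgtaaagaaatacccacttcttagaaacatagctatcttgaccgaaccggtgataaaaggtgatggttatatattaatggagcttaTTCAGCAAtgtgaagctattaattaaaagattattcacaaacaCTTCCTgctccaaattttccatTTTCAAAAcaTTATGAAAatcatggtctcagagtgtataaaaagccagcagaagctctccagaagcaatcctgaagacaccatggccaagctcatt
Ear1: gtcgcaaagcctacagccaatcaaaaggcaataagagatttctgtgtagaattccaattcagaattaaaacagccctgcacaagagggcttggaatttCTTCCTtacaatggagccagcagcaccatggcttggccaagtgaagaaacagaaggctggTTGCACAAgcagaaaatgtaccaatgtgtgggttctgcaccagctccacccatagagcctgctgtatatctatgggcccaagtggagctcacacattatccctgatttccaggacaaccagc
Ear2: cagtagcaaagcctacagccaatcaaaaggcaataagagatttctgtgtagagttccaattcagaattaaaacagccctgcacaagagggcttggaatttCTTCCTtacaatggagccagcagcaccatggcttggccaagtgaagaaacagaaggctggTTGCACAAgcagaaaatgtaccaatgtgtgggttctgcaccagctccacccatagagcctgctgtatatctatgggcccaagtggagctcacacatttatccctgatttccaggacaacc
Ppbp: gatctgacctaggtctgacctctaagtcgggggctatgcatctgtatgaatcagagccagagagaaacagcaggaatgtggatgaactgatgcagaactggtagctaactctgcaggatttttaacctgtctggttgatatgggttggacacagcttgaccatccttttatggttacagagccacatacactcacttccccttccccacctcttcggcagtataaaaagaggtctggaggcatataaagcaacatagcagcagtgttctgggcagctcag
Pf4: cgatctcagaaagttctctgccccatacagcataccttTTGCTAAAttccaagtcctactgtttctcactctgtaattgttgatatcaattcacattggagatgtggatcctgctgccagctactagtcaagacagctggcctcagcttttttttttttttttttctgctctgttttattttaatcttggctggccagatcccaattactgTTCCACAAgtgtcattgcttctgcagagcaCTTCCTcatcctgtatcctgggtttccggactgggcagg
Chac1: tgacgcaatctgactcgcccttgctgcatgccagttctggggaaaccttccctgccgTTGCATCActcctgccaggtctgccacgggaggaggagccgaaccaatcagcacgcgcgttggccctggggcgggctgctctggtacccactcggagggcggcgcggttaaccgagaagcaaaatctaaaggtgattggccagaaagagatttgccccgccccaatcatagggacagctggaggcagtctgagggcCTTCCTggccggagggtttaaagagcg
Trib3: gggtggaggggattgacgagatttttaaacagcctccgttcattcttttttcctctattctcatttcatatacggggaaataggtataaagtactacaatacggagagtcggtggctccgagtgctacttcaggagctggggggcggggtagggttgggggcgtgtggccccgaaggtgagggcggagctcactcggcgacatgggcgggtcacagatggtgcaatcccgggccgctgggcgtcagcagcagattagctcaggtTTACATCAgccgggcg
Over the 32851 RefSeq promoter windows of the same length, AGATAA was found in 10.7%, AGGAAG in 32.9%, TTNNGNAA in 39.3% and TGATGNAA in 3.81%. Chil3 held 3 matches to TTNNGNAA, 1 to AGGAAG and 1 to AGATAA, and Chil4 held 3 to TTNNGNAA and 1 to AGGAAG. Without gaps, and at the best shift, the Chil3 and Chil4 windows had the same base at 71.4% of 252 positions. The Ear1 and Ear2 windows were equal at 93.9% of 278 positions, with 1 match to AGGAAG and 1 to TTNNGNAA in each. Chac1 and Trib3 each held 1 match to TGATGNAA, while the Ppbp window held none of the 4 motifs. A match is a description of the letters and not of a bound site.

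In diseased GMPs, 1939 of 12770 genes (15.2%) passed limma's test at an adjusted p under 0.05, 1037 higher (8.12%) and 902 lower (7.06%). Over all genes the median difference was 0.14 on the log2 scale, and it was 0.05 with quantile normalization and -0.01 with the percentile taken over probes detected on every GMP array. The split of calls moved with that scaling: 672 genes were higher and 1015 lower with quantile normalization, and 299 higher and 1074 lower with the percentile over commonly detected probes. The count moved strongly with the arrays in the fit. Without the MDS/MPN array 3113 genes were called, without the RAEB array 1645 and without the double mutant array 751, but only 26 without the Tet2KD/KD array, and 1 without the Ezh2-/- or without the wild-type array. That gene was Ppbp in both cases. Ppbp was above background on none of the 4 arrays without disease, so that their small spread is a spread of background signal. With Tet2 and Ezh2 genotype as covariates 0 genes passed by limma (1934 at an unadjusted p under 0.05), with the double mutant as the comparator alone 1 did, and with the male or female pattern as a covariate 298 did. At an unadjusted p under 0.05, limma gave 4407 genes (34.5%) in the fit of 2 against 4. Of the 135 called genes that the naming rule picks, 1 kept its call without each of the 6 arrays in turn and 62 kept it without either diseased array. For the other genes named below, an adjusted p under 0.05 thus holds for the fit of all 6 arrays and is given beside the values of each array.

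A count that needs no test is that of genes for which both diseased arrays lay outside the range of the 4 others. This held for 5676 of 12770 genes (44.4%), of which 3696 (28.9%) lay above that range and 1980 (15.5%) below it, and all 1939 called genes were among them. Genes at background on a whole side entered the test only through the side on which they are high: 48 of the 1037 genes called higher were above background on no array without disease, and 84 of the 902 called lower on neither diseased array. The genes described next were also picked for their gap, so their adjusted p-values describe the fit and are no independent support. The gap was at least 1 log2 unit, a doubling, for 131 genes above (1.03%) and 184 below (1.44%). Without the MDS/MPN array these became 542 and 727, without the RAEB array 227 and 439, and without the double mutant array 199 and 309.

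**Figure D1:**
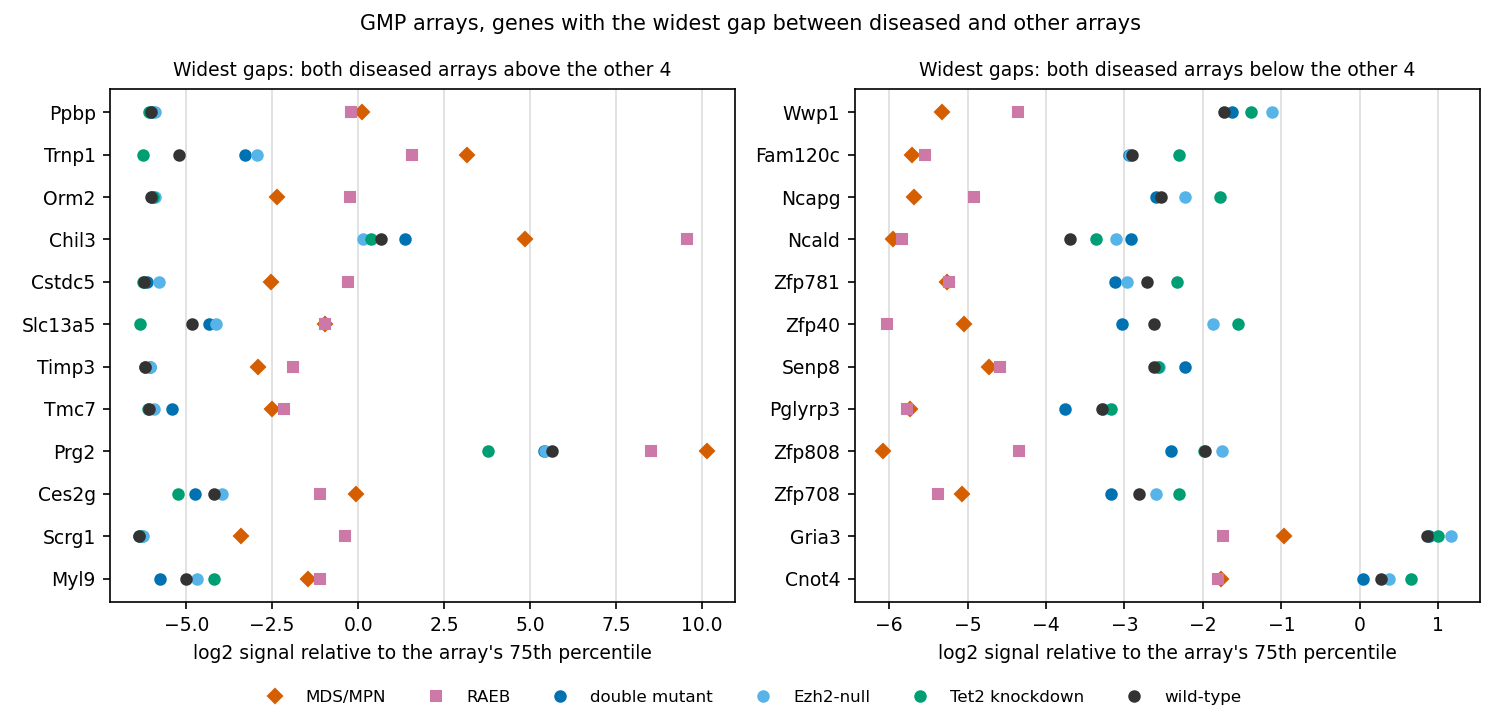
Log2 signal relative to the array's 75th percentile (x axis) on each of the 6 GMP arrays for the 12 genes with the widest gap above (left) and below (right) the 4 arrays without disease; each point is 1 array. Ppbp stands furthest to the right of its 4 comparators, which lie between -6.07 and -5.90, and Wwp1 has the widest gap below.

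The gene with the widest gap was Ppbp, the precursor of the platelet chemokine CXCL7. Ppbp was at 0.12 on the MDS/MPN array and -0.20 on the RAEB array, against -5.98, -5.90, -6.07 and -6.02. Both diseased arrays were well above background and none of the 4 others was, so that Ppbp was at least 16.9-fold higher in diseased GMPs (limma adjusted p = 8.08e-05). Trnp1, a nuclear protein studied in the developing brain, was at 3.16 on the MDS/MPN array and 1.57 on the RAEB array, against -3.28, -2.95, -6.26 and -5.22. Only the double mutant and Ezh2-/- arrays of the 4 measured Trnp1 above background, and the difference was 6.79 ± 1.02 (SE, adjusted p = 0.0184). Timp3, a tissue inhibitor of metalloproteinases, was at -2.91 on the MDS/MPN array and -1.89 on the RAEB array, against -6.07, -6.04, -6.19 and -6.18. Timp3 was at least 3.29-fold higher (adjusted p = 0.0151), with no array without disease above background. Likewise with 0 of 4 comparator arrays above background, the citrate transporter Slc13a5 was at least 8.91-fold higher, the carboxylesterase Ces2g at least 11.5-fold, and Myl9, a regulatory light chain of smooth muscle and platelet myosin, at least 7.11-fold. Orm2, an acute-phase glycoprotein, was at -2.36 on the MDS/MPN array and -0.24 on the RAEB array, against -5.98, -5.91, -5.98 and -6.03, at least 7.03-fold higher (adjusted p = 0.0162). Tmc7, a member of a channel-like membrane protein family, was at least 3.46-fold higher and Scrg1 at least 4.71-fold, with adjusted p-values of 0.0151 and 0.0216.

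Among genes below the range, Wwp1, a ubiquitin ligase, had the widest gap. Wwp1 was at -5.32 on the MDS/MPN array and -4.36 on the RAEB array, against -1.63, -1.12, -1.39 and -1.73, so that all 4 arrays without disease and neither diseased array lay well above background. Wwp1 was at least 4.91-fold lower in diseased GMPs (adjusted p = 0.0158). Ncapg, a subunit of the condensin complex that compacts mitotic chromosomes, was at -5.68 on the MDS/MPN array and -4.92 on the RAEB array, against -2.59, -2.22, -1.79 and -2.54, at least 2.79-fold lower (adjusted p = 0.0162). Gria3, a glutamate receptor subunit, was measured on every array: it was at -0.96 on the MDS/MPN array and -1.74 on the RAEB array, against 0.89, 1.17, 1.00 and 0.86. Gria3 differed by -2.33 ± 0.24 (SE, adjusted p = 0.0162). Cnot4, a ubiquitin ligase associated with the CCR4-NOT deadenylase, was at -1.77 on the MDS/MPN array and -1.81 on the RAEB array, against 0.04, 0.38, 0.65 and 0.27, a difference of -2.13 ± 0.19 (adjusted p = 0.0158). The zinc finger genes Zfp781, Zfp40, Zfp808 and Zfp708 were at least 1.97-fold, 2.82-fold, 3.34-fold and 2.05-fold lower. Fam120c, Ncald (a neuronal calcium sensor), Senp8 (a NEDD8 protease) and Pglyrp3 (a peptidoglycan recognition protein) were at least 1.99-fold, 1.41-fold, 2.42-fold and 1.31-fold lower. All 8 were above background on 4 of 4 comparator arrays and on neither diseased array.

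The secreted chitinase-like protein Chil3 (Ym1) is made by immature neutrophils and by alternatively activated macrophages. Chil3 was at 4.87 on the MDS/MPN array and 9.56 on the RAEB array, against 1.36, 0.13, 0.37 and 0.66. Both diseased arrays lay above all 4 others, with RAEB far above MDS/MPN. The difference was 6.58 ± 1.18 (SE, adjusted p = 0.0241), which became 8.92 without the MDS/MPN array and 4.23 without the RAEB array. Its call held in 9 of 13 other settings of processing and model. Of the 6 fits that left out 1 array, 3 kept the call, and the losses included those without the Ezh2-/- array and without the wild-type array. Its neighbour and paralog Chil4 was at -2.50 on the MDS/MPN array and 2.70 on the RAEB array, against -5.09, -6.28, -6.45 and -5.31, with 0 of the 4 comparators above background. Chil4 was at least 18.6-fold higher in diseased GMPs (adjusted p = 0.0362), and the 2 probes could each pick up transcripts of the other gene. Bst1, an ADP-ribosyl cyclase of the myeloid surface, was not tested, since it was above background on the RAEB array alone: it was at -3.75 on the MDS/MPN array and -3.38 on the RAEB array, against -5.70, -6.24, -6.39 and -6.00.

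Part of the late neutrophil genes rose in diseased GMPs. In the list of secondary granule and other late neutrophil genes, 10 of 34 tested members rose and 1 fell. The shares over all genes were 8.12% and 7.06%, the background of calls for each list below. Of the 10, at least Stfa1 and Cd177 entered the test only through the diseased arrays, as did 48 of the 1037 genes called higher. Of the 34, 23 members lay above the range of the 4 comparators, against 28.9% of all genes. The median difference of the list was 1.60, against 0.14 over all genes. S100a9, a subunit of calprotectin, was at 5.55 on the MDS/MPN array and 8.08 on the RAEB array, against 2.72, 3.21, 3.90 and 3.71, a difference of 3.43 ± 0.70 (adjusted p = 0.0301). Its partner S100a8 was at 6.40 on the MDS/MPN array and 8.50 on the RAEB array, against 5.11, 3.62, 3.30 and 4.36, a difference of 3.36 ± 0.71 (adjusted p = 0.0317). Both subunits were highest on the RAEB array. Lcn2, the siderophore-binding protein of secondary granules, was at 5.31 on the MDS/MPN array and 5.97 on the RAEB array, against 3.14, 2.23, 1.70 and 3.17, a difference of 3.08 ± 0.47 (adjusted p = 0.0191). Lrg1, a leucine-rich glycoprotein, rose by 3.27 ± 0.84 (adjusted p = 0.0486). Stfa1, a stefin protease inhibitor, was above background on both diseased arrays and on none of the 4 others, at least 8.55-fold higher (adjusted p = 0.0204), and the related Cstdc5 was at least 6.54-fold higher (adjusted p = 0.0162). Cd177, a surface protein of neutrophils, was at least 2.25-fold higher (adjusted p = 0.0162). The member that fell was the chemokine receptor Cxcr2, at -1.77 on the MDS/MPN array and -1.35 on the RAEB array, against -0.69, -0.52, -0.50 and -0.90 (difference -0.91 ± 0.19, adjusted p = 0.0317). The summed signal of the list, in multiples of the 75th percentile, was 1206 on the MDS/MPN array and 2329 on the RAEB array, against 542 to 714 on the 4 others, and 34 and 36 of its 41 members with a probe were above background, against 28 to 30. In RNA from sorted bulk cells, more mature cells within the gate and more transcript per cell cannot be told apart; the part of such cells in these results was not tested. Members called higher numbered between 0 and 14 when 1 array was left out, and the list's median then stayed between 1.29 and 1.71.

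For the next 3 lists the shares over all genes were 8.12% higher and 7.06% lower, and no list stood far above them. Of 21 primary granule genes, 2 rose and 0 fell, with a median difference of 0.41. Among those that rose was the lysosomal enzyme Man2b1 (1.02 ± 0.23, adjusted p = 0.0372). Of 25 GMP markers, 1 rose and 0 fell: the Fc receptor Fcgr2b was at 3.36 on the MDS/MPN array and 3.45 on the RAEB array, against 2.84, 2.83, 2.59 and 2.73 (difference 0.66 ± 0.14, adjusted p = 0.0327). The median difference of the GMP markers was 0.30. Of 25 monocyte and macrophage genes, 2 rose and 0 fell. Fibronectin (Fn1) was at 2.49 on the MDS/MPN array and 3.54 on the RAEB array, against 0.69, 0.69, -0.05 and -1.47, a difference of 3.05 ± 0.67 (adjusted p = 0.0334), and the chemokine Ccl6 rose by 1.51 ± 0.28 (adjusted p = 0.0253).

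Eosinophil granule genes stood high on the MDS/MPN array. The eosinophil list had 4 of 12 tested members higher and 0 lower, against 8.12% and 7.06% of all genes, with a median difference of 3.52. Prg2, the major basic protein of the eosinophil granule, was at 10.13 on the MDS/MPN array and 8.51 on the RAEB array, against 5.41, 5.42, 3.77 and 5.65. All 4 comparators, among which Tet2KD/KD was the lowest, lay below both diseased arrays, and the difference was 4.26 ± 0.66 (SE, adjusted p = 0.0198). Ear1, an eosinophil-associated ribonuclease, was at 6.99 on the MDS/MPN array and 3.62 on the RAEB array, against 0.65, 0.12, -2.11 and 1.10, a difference of 5.37 ± 1.18 (adjusted p = 0.0339). Ear2 was at 8.63 on the MDS/MPN array and 5.35 on the RAEB array, against 2.78, 2.48, -0.04 and 3.18, and Ear10 at 6.67 on the MDS/MPN array and 3.01 on the RAEB array, against 0.89, 0.43, -1.93 and 0.91, with adjusted p-values of 0.0414 and 0.0460. These ribonucleases are close paralogs, and a probe may read more than 1 of them. Their promoter windows were equal at 93.9% of positions for Ear1 and Ear2, 86.0% for Ear1 and Ear10 and 81.2% for Ear2 and Ear10. Against the double mutant array, the median of the list was 4.84 for MDS/MPN and 0.77 for RAEB, beside 0.23 and -0.03 over all genes. On the MDS/MPN array 10 of the 12 members were at least 2-fold above the double mutant, against 4.82% of all genes. On the RAEB array 6 were, against 8.19% of all genes. Eosinophil peroxidase (Epx) and the second basic protein Prg3, named here after their values were seen, did not pass the test: Epx was at 6.93 on the MDS/MPN array and 3.00 on the RAEB array, against 1.85, 2.10, 0.49 and 2.25, and Prg3 at 6.10 on the MDS/MPN array and 1.99 on the RAEB array, against 2.59, 2.57, 0.87 and 2.10. Epx and Prg3 stood far above the other 5 arrays on the MDS/MPN array, while on the RAEB array Epx lay just above the 4 comparators and Prg3 within their range. The members of the list that are not granule genes did not pass either: the IL-5 receptor chain Il5ra differed by 0.89 ± 0.66, the transcription factor Gata1 by 0.39 ± 0.47, and the surface proteins Cd24a and Siglecf by -0.14 ± 0.37 and -0.53 ± 0.41. These differences average both diseased arrays. On the MDS/MPN array alone, the 10 members at least 2-fold above the double mutant included some of these genes. The summed signal of the list was 2321 on the MDS/MPN array and 480.1 on the RAEB array, against 53.9 to 128 on the 4 others, with 13 and 12 of 15 members above background, against 12 on each. The part of eosinophil-committed cells in this was not tested. Between 0 and 7 members were called higher when 1 array was left out, and the list's median then lay between 1.40 and 5.17.

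**Figure D2:**
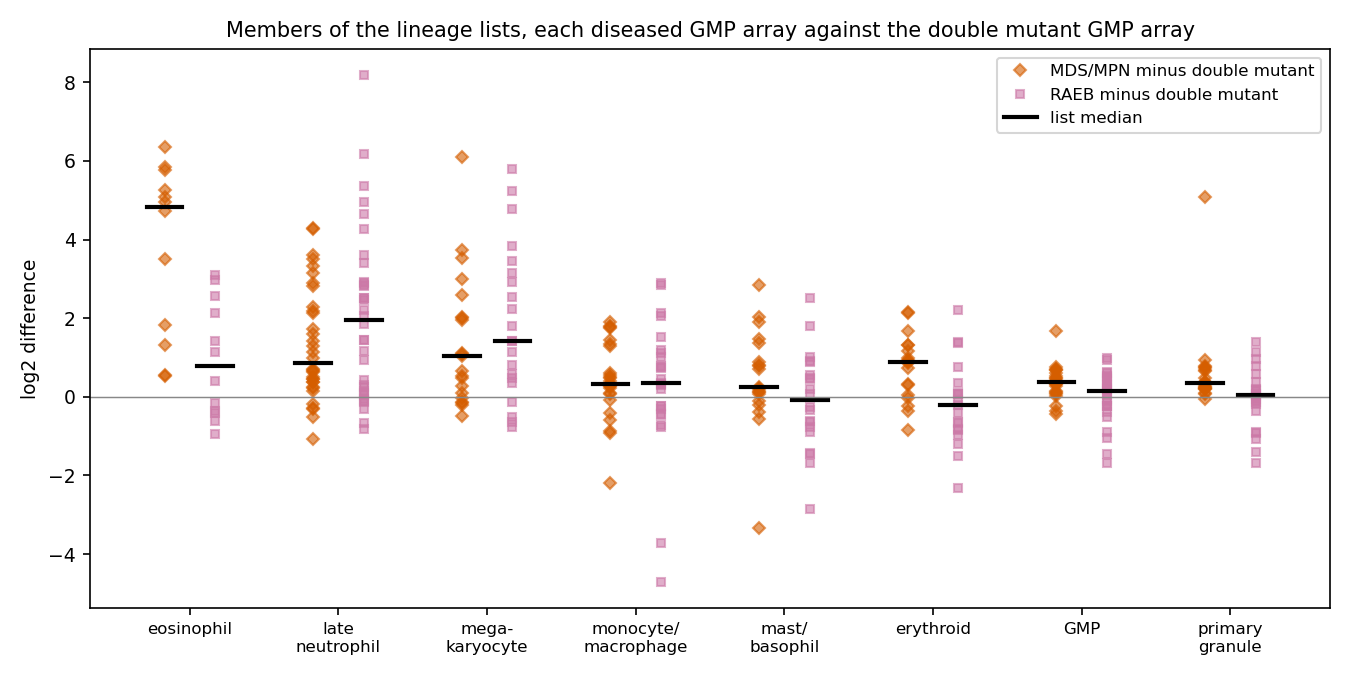
Log2 difference of the MDS/MPN array (diamonds) and of the RAEB array (squares) from the double mutant GMP array, for each tested member of 8 lists; black bars are list medians. The eosinophil median is 4.84 for MDS/MPN and 0.77 for RAEB, the late neutrophil medians are 0.85 and 1.96, and the megakaryocyte medians are 1.04 and 1.43.

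Platelet genes rose in diseased GMPs. Of 21 tested members of the megakaryocyte list, 10 rose and 0 fell, against 8.12% and 7.06% of all genes, and the median difference was 1.19. Of the 10, at least Ppbp, Gp1ba and Gp5 entered the test only through the diseased arrays, on which they were high. The same held for 48 of the 1037 genes called higher, so the count of 10 is no independent support. Pf4, platelet factor 4, whose gene lies next to Ppbp, was at 3.00 on the MDS/MPN array and 4.70 on the RAEB array, against -0.54, 0.61, -0.87 and 0.80. The difference was 3.85 ± 0.65 (SE, adjusted p = 0.0222), and RAEB was the highest array. Vwf, the von Willebrand factor, was at -0.32 on the MDS/MPN array and 0.89 on the RAEB array, against -2.27, -2.42, -3.18 and -1.89, a difference of 2.73 ± 0.45 (adjusted p = 0.0208). Treml1, a receptor of platelet granules, was at -0.27 on the MDS/MPN array and 0.60 on the RAEB array, against -2.86, -2.15, -2.61 and -1.94, a difference of 2.56 ± 0.35 (adjusted p = 0.0166). In these genes, as in every called gene, the groups did not overlap. Gp1ba and Gp5, subunits of the platelet receptor for von Willebrand factor, were above background on both diseased arrays and on none of the 4 others, at least 3.20-fold and 2.27-fold higher (adjusted p = 0.0330 and 0.0162). Fli1, an ETS transcription factor that megakaryocytes share with progenitors, named after its values were seen, did not pass the test (-0.19 ± 0.14, adjusted p = 0.361). The summed signal of the list was 99.8 on the MDS/MPN array and 132 on the RAEB array, against 68.9 to 78.6 on the 4 others, with 21 of 24 members above background on each diseased array, against 16 to 18. The part of platelets or megakaryocytic cells in this was not tested. Members called higher ranged from 1 to 11 when 1 array was left out, and the median from 0.93 to 1.53.

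The erythroid list had 0 of 19 members called by limma in either direction (4 at an unadjusted p under 0.05), with a median difference of 0.29. Its smallest p belonged to the anion exchanger Slc4a1 of the red cell membrane, at -2.13 on the MDS/MPN array and -2.06 on the RAEB array, against -2.42, -2.83, -2.73 and -2.90 (difference 0.63 ± 0.18, adjusted p = 0.0591). Ferrochelatase (Fech), the last enzyme of haem synthesis, rose by 0.80 ± 0.13 (adjusted p = 0.0208), and the ferritin heavy chain Fth1 by 0.63 ± 0.14 (adjusted p = 0.0331); they were the 2 of 18 haem and iron genes that passed. In the mast cell and basophil list 3 of 20 rose: Il4 was at -1.36 on the MDS/MPN array and -1.46 on the RAEB array, against -3.25, -2.79, -2.24 and -3.15 (difference 1.45 ± 0.30, adjusted p = 0.0307), and the shared beta chains of the IL-3, IL-5 and GM-CSF receptors, Csf2rb and Csf2rb2, rose by 0.93 ± 0.23 and 1.00 ± 0.17. By limma the B-lineage list had 0 of 8 members called and the T and NK list 0 of 10, with 2 in each at an unadjusted p under 0.05. Of the 23 stem cell genes, Vwf rose, and Mllt3 and the RNA-binding protein Msi2 fell: Msi2 was at 2.07 on the MDS/MPN array and 1.86 on the RAEB array, against 2.89, 3.52, 2.97 and 3.39 (difference -1.23 ± 0.23, adjusted p = 0.0253). Mllt3, a regulator of stem cell maintenance, was above background on 1 of the 2 diseased arrays and differed by -2.06 ± 0.43 (adjusted p = 0.0315). In the list of genes of acute myeloid leukaemia, 3 of 31 rose and 3 fell. Sox4, a transcription factor of lymphoid and myeloid progenitors, fell to 0.98 on the MDS/MPN array and 1.44 on the RAEB array, against 2.06, 2.47, 2.82 and 2.49 (difference -1.24 ± 0.25, adjusted p = 0.0288).

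Each disease was next set against the double mutant GMP array, the comparator of the same genotype. There is 1 array on each side, so no test was made; the 2 comparisons share the double mutant array, which has a female pattern where both diseased arrays have a male one. With the brighter array above background, 1257 genes (9.84%) differed at least 2-fold from the double mutant for MDS/MPN and 2277 (17.8%) for RAEB. At least 2-fold above the double mutant were 615 genes (4.82%) for MDS/MPN and 1046 (8.19%) for RAEB. At least 2-fold below were 642 (5.03%) for MDS/MPN and 1231 (9.64%) for RAEB. In both diseases 378 genes (2.96%) were at least 2-fold above, 299 (2.34%) at least 2-fold below, and 18 (0.141%) at least 2-fold away in opposite directions.

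**Figure D3:**
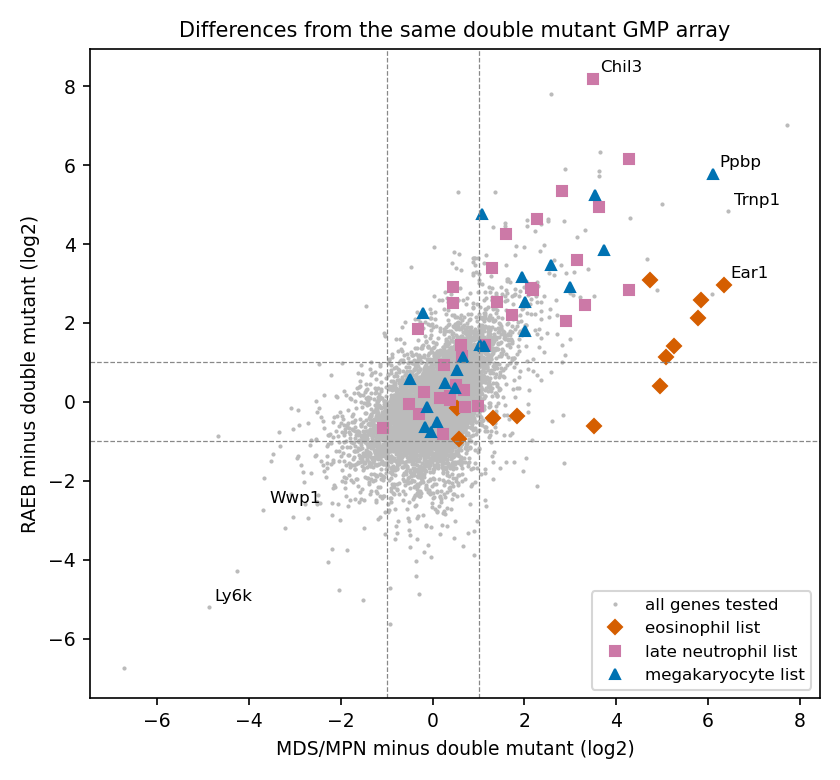
Log2 difference of the MDS/MPN array (x axis) and of the RAEB array (y axis) from the double mutant GMP array for the 12770 genes tested (grey) and members of 3 lists (coloured); dashed lines mark 2-fold. Both axes share the double mutant array, so the slope of the cloud is not a result; eosinophil genes lie to the right, with Ear1 at 6.35 and 2.97, and Chil3 lies at the top at 3.50 and 8.19.

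For MDS/MPN the largest differences above the double mutant were Trnp1 (6.44), Ear1 (6.35), Ear2 (5.85) and Ear10 (5.78), and Ppbp, at least 18.2-fold. Wwtr1, the TAZ coactivator of the Hippo pathway, was at 0.02 on the MDS/MPN array and -3.34 on the RAEB array, against -6.06, -6.01, -6.15 and -6.16, at least 16.9-fold above the double mutant in MDS/MPN and at least 1.65-fold in RAEB. For RAEB the largest were Chil3 (8.19, beside 3.50 for MDS/MPN) and Chil4 (at least 109-fold, beside at least 2.95-fold). Adam8, a metalloprotease of activated leukocytes, was at -0.83 on the MDS/MPN array and 1.87 on the RAEB array, against -4.48, -3.93, -2.56 and -3.28. Adam8 was at least 60.9-fold above the double mutant in RAEB and at least 9.42-fold in MDS/MPN; the Tet2KD/KD and wild-type arrays, but not the double mutant array, measured it above background. Stfa1 and Cstdc5 were at least 15.8-fold and 13.6-fold above it in RAEB.

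Among genes below the double mutant, Cx3cr1, the fractalkine receptor of monocytes and their precursors, was at 1.54 on the MDS/MPN array and -2.25 on the RAEB array, against 2.47, 3.09, 2.39 and 2.53. RAEB was -4.72 from the double mutant and MDS/MPN -0.93, and both lay below the 4 others (limma adjusted p = 0.0798). Scin, an actin-severing protein, was at -1.74 on the MDS/MPN array and -5.26 on the RAEB array, against -0.23, 0.85, -0.24 and -1.19. Scin was not above background on the RAEB array, at least 11.7-fold below the double mutant, whereas it was measured on the MDS/MPN array. The potassium channel subunit Kcng1 and Fndc4 followed the same order, at least 7.83-fold and 7.52-fold below the double mutant on the RAEB array; Fndc4 was below background on the wild-type array too. Ly6k, a GPI-anchored protein, was at -3.87 on the MDS/MPN array and -4.20 on the RAEB array, against 1.01, 0.98, -2.17 and -1.65. Ly6k was above background on all 4 arrays without disease and on neither diseased array, at least 27.3-fold and 27.5-fold below the double mutant for MDS/MPN and RAEB, and its test over the 6 arrays gave an adjusted p of 0.0610. The interferon-induced gene Ifi44 was not above background on either diseased array, at least 2.59-fold below the double mutant in MDS/MPN. Ccr1l1 and Syce1 were at least 5.80-fold and 3.90-fold below the double mutant in MDS/MPN, and were not well above background on 3 and 2 of the 4 arrays without disease.

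The same disease contrast was then tested in LSK cells (cells without lineage markers that carry Sca-1 and c-Kit, and hold the stem and multipotent progenitors), where MDS/MPN and RAEB had 1 array each and the 4 conditions without disease had 1 each. The difference between the GMP and the LSK effects passed limma's interaction test for 1765 genes (13.8%), 909 with the GMP effect the higher (7.12%) and 856 with it the lower (6.7%). This count ran from 431 to 3805 when 1 of the 12 arrays was left out. It was 431 without the MDS/MPN and 616 without the RAEB array of LSK cells, and 3805 and 856 without those of GMPs. The diseased LSK arrays lay on a slide of their own and had a female pattern, unlike the diseased GMP arrays. Of the 1939 genes called in GMPs, 820 (6.42% of all genes tested) also passed the interaction test.

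Platelet genes differed in this way. In LSK cells Pf4 was at 2.81 and 2.34 on the MDS/MPN and RAEB arrays, against 1.90, 2.91, 3.13 and 4.03, and the groups overlapped. The disease effect on Pf4 was 4.26 higher in GMPs than in LSK cells (adjusted p = 0.0166), that on Ppbp 6.72 (adjusted p = 0.00169) and that on Treml1 2.82 (adjusted p = 0.00820). In the megakaryocyte list 9 of 21 members passed the interaction test, all with the higher effect in GMPs, and the median difference in LSK cells was -0.27. For GMP markers the order was the other way: 14 of 25 rose in diseased LSK cells, where limma called 1144 genes (8.96%), 4.58% of all genes higher and 4.38% lower, with a median of 1.40, and 11 passed the interaction test with the lower effect in GMPs. In diseased LSK cells the eosinophil list had 0 members called, a median of 1.86 and 0 interaction calls, so that a difference between the cell types was not shown for it. The late neutrophil list had a median of 1.32 in LSK cells, with 3 members called higher and 2 lower. Of its 34 members, 2 passed the interaction test with the higher effect in GMPs and 3 with the lower. Chil3 differed by 1.89 in LSK cells and passed neither test, and the 2 diseased LSK arrays disagreed. The summed signal of Chil3 and Bst1 was 25.0 on the MDS/MPN array of LSK cells and 0.437 on the RAEB array. On the 4 LSK arrays without disease it was 0.486 to 2.10, so RAEB lay below them, unlike in GMPs.

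**Figure D4:**
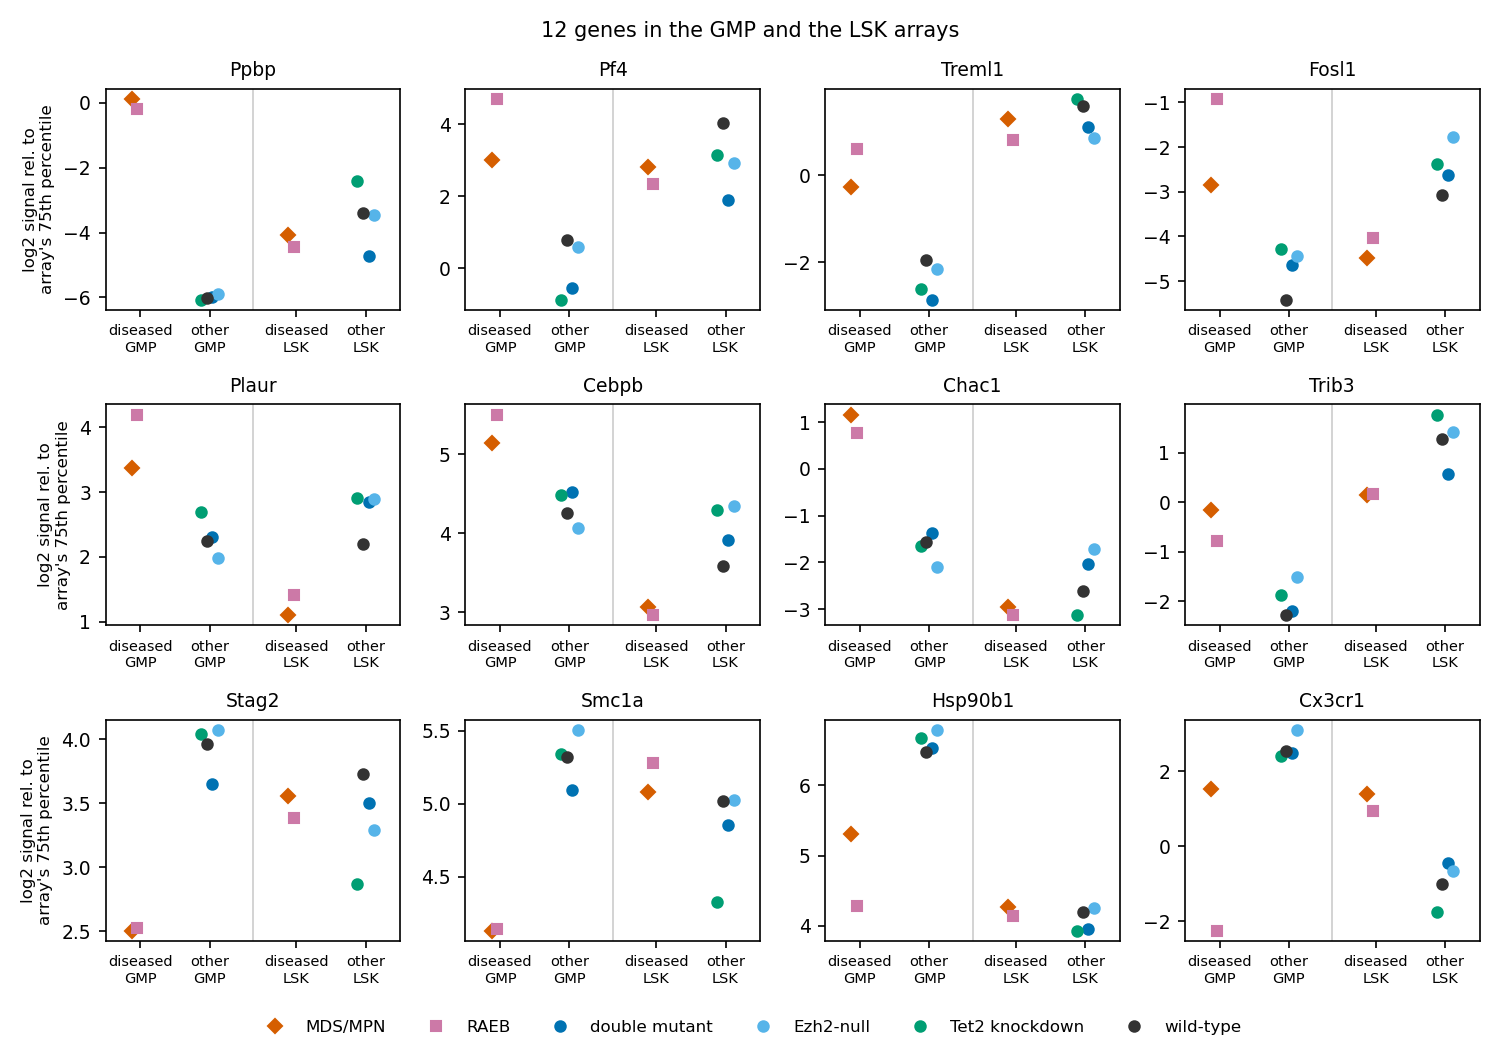
Log2 signal relative to the array's 75th percentile (y axis) of 12 genes on the 12 arrays; diamonds and squares are the MDS/MPN and RAEB arrays, circles the 4 arrays without disease, with GMPs left and LSK cells right of the grey line in each panel. Ppbp, Pf4, Chac1 and Plaur are higher on the diseased than on the other GMP arrays and not on the diseased LSK arrays.

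Immediate-early genes, which cells induce within minutes of a stimulus or of handling, differed in their disease effect between the cell types. Of 25 tested, 3 rose in diseased GMPs and 0 fell, against 8.12% and 7.06% of all genes, with a median of 1.12. Of the 3, Fosl1 entered the test only through the diseased arrays. In LSK cells 0 rose and 6 fell, against 4.58% and 4.38% of all genes, with a median of -1.46. The interaction passed for 12 of the 25, against 13.8% of all genes, all with the higher effect in GMPs. Fosl1, a subunit of AP-1, was at -2.85 on the MDS/MPN array and -0.92 on the RAEB array, against -4.64, -4.44, -4.28 and -5.42, at least 4.68-fold higher in diseased GMPs (adjusted p = 0.0298). Egr2, a zinc finger factor of the EGR family, was at -1.71 on the MDS/MPN array and 0.39 on the RAEB array, against -3.93, -2.83, -3.04 and -4.59, a difference of 2.94 ± 0.71 (adjusted p = 0.0419), with 2 of the 4 comparators above background. Klf2 was at 8.14 on the MDS/MPN array and 8.56 on the RAEB array, against 5.88, 6.79, 7.37 and 6.68, a difference of 1.67 ± 0.40 (adjusted p = 0.0401). The summed signal of the list was 1387 on the MDS/MPN array and 2160 on the RAEB array, against 563 to 1399 on the 4 others, the highest of which was Tet2KD/KD, so that in sum the groups overlapped. Time from marrow to lysis is not given in the sources used here, and its part was not tested. Plaur, the urokinase receptor, showed the same pattern: it was at 3.37 on the MDS/MPN array and 4.20 on the RAEB array, against 2.31, 1.98, 2.70 and 2.25 (difference 1.47 ± 0.29, adjusted p = 0.0288), while in LSK cells it was at 1.10 and 1.40, against 2.84, 2.89, 2.91 and 2.20 (interaction 2.94, adjusted p = 0.00632).

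Of 32 transcription factors of myeloid cells, 6 rose and 1 fell. Cebpb, a factor of emergency granulopoiesis, was at 5.14 on the MDS/MPN array and 5.50 on the RAEB array, against 4.52, 4.07, 4.48 and 4.25, a difference of 0.99 ± 0.20 (adjusted p = 0.0287). Zeb2, a repressor with roles in myeloid and dendritic cell fate, was the member that fell, to 2.13 on the MDS/MPN array and 1.57 on the RAEB array, against 3.14, 3.32, 3.54 and 3.16 (difference -1.43 ± 0.21, adjusted p = 0.0178). The inhibitor Id2 rose by 1.51 ± 0.29 (adjusted p = 0.0283) and the bZIP factor Nfil3 by 1.50 ± 0.37 (adjusted p = 0.0440). In the inflammatory list 4 of 28 rose and 0 fell. The decoy receptor Il1r2, a brake on IL-1 signalling, was at -2.26 on the MDS/MPN array and 1.69 on the RAEB array, against -3.62, -4.68, -5.02 and -5.39, a difference of 4.40 ± 1.06 (adjusted p = 0.0418), with 1 of the 4 comparators above background. The monocyte chemoattractant Ccl2 was at 3.05 on the MDS/MPN array and 5.18 on the RAEB array, against 0.53, 0.51, 2.46 and 0.43; the Tet2KD/KD array, at 2.46, stood close to the MDS/MPN array, and the difference was 3.13 ± 0.79 (adjusted p = 0.0459). The interferon list had 1 of 36 higher and 1 lower, both shares below the background of 8.12% and 7.06%. Against the double mutant array its median was -0.30 for MDS/MPN and 0.16 for RAEB. For MDS/MPN 8 members were at least 2-fold below and 1 above, against 5.03% and 4.82% of all genes. For RAEB 2 were below and 5 above, against 9.64% and 8.19%.

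Chemokine receptors and integrins help to set where progenitors reside. Of 17 genes of chemokines and their receptors, 5 rose and 1, Cxcr2, fell, against 8.12% and 7.06% of all genes. Cxcr4, the receptor for the marrow chemokine CXCL12, was at 3.50 on the MDS/MPN array and 4.22 on the RAEB array, against 2.68, 2.18, 2.49 and 2.13, a difference of 1.49 ± 0.26 (adjusted p = 0.0239). S1pr4, a sphingosine-1-phosphate receptor, was at -0.14 on the MDS/MPN array and 0.08 on the RAEB array, against -1.51, -1.64, -1.42 and -1.28, a difference of 1.43 ± 0.16 (adjusted p = 0.0162). Among 28 adhesion genes, 5 rose and 2 fell, the second a share near that of all genes. The laminin receptor subunit Itga6 fell to 3.23 on the MDS/MPN array and 3.22 on the RAEB array, against 4.74, 4.88, 4.38 and 4.74 (difference -1.46 ± 0.18, adjusted p = 0.0162), and Itga4, the alpha chain of VLA-4, differed by -1.34 ± 0.27 (adjusted p = 0.0299). Itgb2, the common chain of the leukocyte integrins, was at 1.45 on the MDS/MPN array and 2.25 on the RAEB array, against 0.43, 0.24, -0.07 and 0.38, a difference of 1.60 ± 0.26 (adjusted p = 0.0208). The effects on Itga6 and Itgb2 differed from those in LSK cells by -1.68 and 1.83 (adjusted p = 0.00822 and 0.0145).

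ATF4 is the transcription factor that cells switch on when amino acids run short. Of 19 of its genes and of amino acid genes tested, 4 rose and 0 fell. The list did not move as a whole in both diseases. Against the double mutant array its median was 0.70 for MDS/MPN and -0.40 for RAEB, beside 0.23 and -0.03 over all genes. Chac1, a glutathione-degrading enzyme, was at 1.16 on the MDS/MPN array and 0.77 on the RAEB array, against -1.38, -2.09, -1.66 and -1.55, a difference of 2.63 ± 0.24 (SE, adjusted p = 0.0158). Trib3, a pseudokinase that restrains AKT and ATF4, was at -0.16 on the MDS/MPN array and -0.78 on the RAEB array, against -2.19, -1.50, -1.88 and -2.28, a difference of 1.50 ± 0.28 (adjusted p = 0.0270). The factors Atf5 (0.76 ± 0.18, adjusted p = 0.0407) and Cebpb made up the 4. In LSK cells Chac1 was at -2.94 and -3.13, against -2.04, -1.71, -3.13 and -2.61, and Trib3 at 0.15 and 0.17, against 0.58, 1.42, 1.78 and 1.28, and the interactions were 3.30 and 2.60 (adjusted p = 0.00680 and 0.00820). In the list of the unfolded protein response, 1 of 23 rose and 3 fell. Against the double mutant, this list's median was 0.27 for MDS/MPN and -0.94 for RAEB. For MDS/MPN 3 members were at least 2-fold above the double mutant and 2 below, and for RAEB 2 above and 11 below. Of all genes, 4.82% were above and 5.03% below for MDS/MPN, and 8.19% above and 9.64% below for RAEB. The stress factor Ddit3 was at 2.46 on the MDS/MPN array and 2.87 on the RAEB array, against 0.52, 0.87, 2.00 and 0.73, a difference of 1.64 ± 0.42 (adjusted p = 0.0492). The chaperone Hsp90b1 of the endoplasmic reticulum fell to 5.30 on the MDS/MPN array and 4.28 on the RAEB array, against 6.53, 6.79, 6.68 and 6.47 (difference -1.83 ± 0.29, adjusted p = 0.0200), and Dnajc3 and calnexin (Canx) differed by -1.57 ± 0.24 and -0.60 ± 0.13. In the cytosol Hsp90aa1 fell to 5.54 on the MDS/MPN array and 4.89 on the RAEB array, against 6.77, 7.33, 7.17 and 7.06 (difference -1.87 ± 0.24, adjusted p = 0.0162). It was 1 of 3 heat shock genes of 21 that fell, with Hsph1 and Chordc1, while the co-chaperone Bag3 rose. The heat shock medians against the double mutant were 0.21 for MDS/MPN and -0.52 for RAEB.

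Genes that are mutated in human myelodysplasia were lower more often than higher. Of 37 tested, 0 rose and 10 fell, against 8.12% and 7.06% of all genes, with a median difference of -0.32. Of the 10, 3 encode cohesin, the ring that holds sister chromatids together. Stag2 was at 2.51 on the MDS/MPN array and 2.53 on the RAEB array, against 3.65, 4.07, 4.04 and 3.96, a difference of -1.41 ± 0.17 (SE, adjusted p = 0.0162). Smc1a was at 4.13 on the MDS/MPN array and 4.14 on the RAEB array, against 5.09, 5.51, 5.34 and 5.32, a difference of -1.18 ± 0.16 (adjusted p = 0.0162), and Smc3 at 2.42 on the MDS/MPN array and 2.44 on the RAEB array, against 3.51, 4.52, 4.19 and 4.16, a difference of -1.66 ± 0.28 (adjusted p = 0.0216). In all 3 genes both diseased arrays read nearly the same value, and, as in every called gene, the groups did not overlap. Stag2, Smc1a and the chromatin factor Phf6 (-1.31 ± 0.20, adjusted p = 0.0199) are X-linked. With the male or female pattern as a covariate, limma's adjusted p was 0.0424 for Stag2, 0.0475 for Smc1a and 0.0552 for Phf6. The splicing factor Sf3b1 was at -0.76 on the MDS/MPN array and -2.10 on the RAEB array, against 0.29, 0.26, 0.23 and 0.34, a difference of -1.71 ± 0.35 (adjusted p = 0.0298). None of these 5 genes passed the test in LSK cells; the interaction was -1.53 for Stag2, -1.55 for Smc1a and -2.02 for Smc3 (adjusted p = 0.0126, 0.00933 and 0.0279).

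Among 11 PRC2 genes, 3 fell and 0 rose. Suz12, a core subunit without which the complex is unstable, was at 1.60 on the MDS/MPN array and 1.30 on the RAEB array, against 2.23, 2.64, 2.35 and 2.53, a difference of -0.99 ± 0.18 (adjusted p = 0.0241). Mtf2, an accessory subunit that brings PRC2 to CpG islands, was at 2.26 on the MDS/MPN array and 2.30 on the RAEB array, against 3.42, 3.53, 3.69 and 3.50, a difference of -1.26 ± 0.14 (adjusted p = 0.0162). Ezh2 was the other member, with -0.60 ± 0.14 (adjusted p = 0.0405), a value that the unknown place of its probe limits. Of 19 PRC1 genes, 3 rose and 2 fell. Phc3, a Polyhomeotic subunit, differed by -0.99 ± 0.16 (adjusted p = 0.0202), and its relatives Phc1 and Phc2 by 0.74 ± 0.16 and 0.52 ± 0.13 the other way (adjusted p = 0.0317 and 0.0407). Pcgf3 was not above background on either diseased array and on 2 of the 4 others, at least 1.17-fold lower (adjusted p = 0.0345), a call that normexp background correction turned to a difference of 0.0060.

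Of 40 cell cycle genes, 2 rose and 4 fell, shares near the 8.12% and 7.06% of all genes, and the median difference was -0.0027. Mki67, the proliferation antigen Ki-67, was at 2.88 on the MDS/MPN array and 3.66 on the RAEB array, against 4.39, 5.50, 5.13 and 4.67, a difference of -1.65 ± 0.37 (adjusted p = 0.0342). Bub1, a spindle checkpoint kinase, was at 0.79 on the MDS/MPN array and 0.27 on the RAEB array, against 1.84, 2.10, 2.09 and 2.03, a difference of -1.49 ± 0.19 (adjusted p = 0.0162). The kinesin Cenpe differed by -2.00 ± 0.39, and the topoisomerase Top2a was at 2.07 on the MDS/MPN array and 1.52 on the RAEB array, against 2.52, 2.79, 3.13 and 2.76 (adjusted p = 0.0377). E2f2, a transcription factor of S phase genes, was higher, at 3.40 on the MDS/MPN array and 4.02 on the RAEB array, against 2.40, 2.04, 2.26 and 2.27 (difference 1.47 ± 0.21, adjusted p = 0.0173). The cell cycle inhibitor Cdkn2d rose by 0.92 ± 0.15 (adjusted p = 0.0204), the 1 of 7 inhibitors tested that passed. Of 23 p53 targets, 3 rose and 0 fell, among them the kinase Plk3 at 1.44 on the MDS/MPN array and 2.47 on the RAEB array, against -0.58, -0.23, 0.29 and 0.55 (difference 1.95 ± 0.41, adjusted p = 0.0317). Among 25 genes of the BCL2 and caspase families, 4 rose and 0 fell: the death-promoting Bcl2l11 (BIM) differed by 1.91 ± 0.38 and Bax by 0.53 ± 0.14, and the survival genes Bcl2a1d and Mcl1 by 1.63 ± 0.40 and 0.95 ± 0.19.

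Of 45 ribosomal protein genes 0 passed limma's test (23 at an unadjusted p under 0.05), and 42 lay above the range of the 4 comparators, against 28.9% of all genes, with a median difference of 0.33, which became 0.01 with 11 genes above the range under quantile normalization. Rpl3, with the smallest p, was at 9.77 on the MDS/MPN array and 9.80 on the RAEB array, against 9.32, 9.15, 9.39 and 9.22 (difference 0.52 ± 0.14, adjusted p = 0.0521). Respiratory chain genes had 0 of 40 called by limma (0 at an unadjusted p under 0.05), with medians of 0.29 for MDS/MPN and -0.31 for RAEB against the double mutant. Cholesterol and fatty acid genes had 0 higher and 1 lower of 25: the elongase Elovl6 differed by -1.29 ± 0.30 (adjusted p = 0.0380), and the list medians against the double mutant were 0.68 for MDS/MPN and -0.69 for RAEB. By limma the HoxA list had 0 of 12 and the HoxB list 0 of 4 called, with 3 and 1 at an unadjusted p under 0.05.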

How the data were processed

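Labelled RNA of 6 GMP and 6 LSK samples was hybridised to 1-colour Agilent arrays of 62976 spots, 1 array per condition. The processed signal is an intensity that Agilent Feature Extraction 10.7.1.1 had background-corrected, per the file headers; the median foreground and background intensities and the flags for spots well above background, saturated or outlying come from the same deposited files. The deposited value table of the series equalled the processed signals on every array (relative tolerance 1e-06). Signals were turned into log2 values minus the 75th percentile of each array's gene spots; control spots and 71 probes with an outlying spot were left out. Of 55681 probes, 26762 had 1 symbol through their accession (97.9% of RefSeq accessions matched, RefSeq table of mouse genes), 28919 had none, and the brightest probe stood for a gene. Genes that 2 or more of the 6 GMP arrays placed well above background entered a moderated linear model (limma 3.58.1, R 4.3.3), with Benjamini-Hochberg adjusted p under 0.05 as the threshold. The interaction with LSK cells was fitted over 12 arrays. A value bounded by background is given as at least N-fold: the bright side's mean against the dim side's mean of, per array, the higher of the lowest signal well above background and the probe's own. The scripts were tested on simulated data with known changes. With 1 array per condition and no number of mice in the labels, p-values measure the spread between conditions.

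Genes were named by rule: the 12 with the widest gap above and below the comparators, the 6 furthest above and below the double mutant for each disease, and called members of the gene lists; exceptions are stated in the text. The members and lists were chosen with earlier results of these data known. Alternatives were quantile normalization, normexp, another percentile, other filters, the mean over probes, the value table, trended and robust moderation, none at all, sex pattern or genotype as covariates, all 12 arrays, the double mutant alone, the condition as a block, and leaving out each array. Results of some genes are not reported here.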

Additional observations from a re-analysis of the deposited data

Results flagged for a closer look

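Among the 4 GMP arrays without disease, 1 array stood apart from the other 3 in 9 of the 122 genes named above, by a gap wide against the whole range of the 4. It was the Tet2KD/KD array in 7 of them, with log2 signals of 2.46 for Ccl2, 3.62 for Csf2rb, -1.93 for Ear10, -2.31 for Fam120c, -5.01 for Gp5, -1.34 for Id2 and 3.77 for Prg2. The wild-type array stood apart for Fndc4, at -6.13, and the double mutant array for Senp8, at -2.22. Chance alone marks about 1 in 20 such groups of 4 arrays.

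By limma's interaction test at an adjusted p under 0.05, the disease effect differed between GMPs and LSK cells for 59 of the 122 genes named above. Most of these genes were picked for their difference in GMPs, which is part of that test. The 13.8% of all genes is therefore no like background for them. Of the 1939 genes called in GMPs, 820 passed it, so the count of 59 is not a result about the named genes. The disease effect was the higher in GMPs for 28. The difference of the effects, on the log2 scale, was 6.72 for Ppbp, 5.26 for Il1r2, 4.60 for Fosl1, 4.47 for Ces2g, 4.37 for Timp3, 4.26 for Pf4, 4.03 for Tmc7, 3.95 for Orm2 and 3.78 for Slc13a5. It was 3.73 for Scrg1, 3.72 for Myl9, 3.56 for Adam8, 3.41 for Egr2, 3.30 for Chac1, 3.18 for Plk3, 3.14 for Vwf, 2.94 for Ddit3 and 2.94 for Plaur. It was 2.82 for Treml1, 2.62 for Gp5, 2.60 for Trib3, 2.16 for Bcl2l11, 2.02 for Cebpb, 1.83 for Itgb2, 1.55 for Mcl1, 1.45 for Slc4a1 and 0.97 for E2f2. It was  and 0.90 for Cdkn2d. It was the lower in GMPs for 31. The difference was -5.12 for Cx3cr1, -3.75 for Gria3, -3.04 for Zfp40, -2.70 for Wwp1, -2.60 for Ncapg, -2.51 for Zfp708, -2.42 for Ncald, -2.31 for Cxcr2 and -2.22 for Senp8. It was -2.02 for Smc3, -1.99 for Fam120c, -1.96 for Hsp90aa1, -1.95 for Hsp90b1, -1.95 for Itga4, -1.78 for Top2a, -1.70 for Sf3b1, -1.68 for Itga6 and -1.65 for Bub1. It was -1.57 for Elovl6, -1.57 for Cnot4, -1.55 for Smc1a, -1.53 for Stag2, -1.53 for Dnajc3, -1.49 for Zeb2, -1.46 for Pcgf3, -1.45 for Mtf2 and -1.39 for Phf6. It was -1.17 for Canx, -1.13 for Ezh2, -1.11 for Mpo and -0.97 for Sox4. The diseased arrays of the 2 cell types lay on different slides and had different sex patterns, and the part of either was not tested.

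Of 28919 probes that match no gene symbol and entered no comparison, 32 were well above background on both diseased GMP arrays and on none of the 4 others. By the opposite pattern, 397 were well above background on the 4 arrays without disease and on neither diseased array. Among the 26762 probes with 1 symbol, the first pattern held for 71 and the opposite one for 206.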

How the results depend on the processing

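Of 12770 genes, 1939 were called in diseased GMPs, 1037 higher and 902 lower; 1765 were called for the difference between the cell types. Quantile normalization gave 672 higher. The percentile over commonly detected probes gave 299 higher, 2433 above the range, 81 and 279 by at least a doubling above and below, and 344 and 1086 at least 2-fold above and below the double mutant for MDS/MPN. Normexp, run on median signals (chosen after seeing the data, since the files hold no mean signal), gave 38 and 51 by at least a doubling, 3294 for the difference between cell types, 194 and 150 for MDS/MPN and 451 and 602 for RAEB. It turned Pcgf3 to 0.0060 and the GMP minus LSK effect of Fam120c to 0.49, Ncapg to 0.16, Ncald to 0.026, Zfp708 to 0.091 and Pcgf3 to 0.35; the cause was not tested. Without a filter 3535 genes were called (2526 higher), 8139 lay above the range and 6289 differed between cell types. With probes above background on all 6 arrays, 71 lay a doubling above, and 402 and 417 differed for MDS/MPN. With sex pattern as a covariate 298 were called (77 higher, 221 lower), and 384 between cell types. Genotype covariates left 0 (0 higher, 0 lower), all 12 arrays gave 3227 (1894 higher), the double mutant alone 1 (1 higher, 0 lower), and no moderation 1052 (560 higher, 492 lower).

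Leaving out 1 array gave 1 to 3113 calls, 1 to 1254 higher and 0 to 1859 lower, 3858 to 7205 above and 2088 to 4780 below the range, 152 to 542 and 193 to 727 by at least a doubling, and 431 to 3805 between cell types. The named genes kept their call in 1413 of 2532 other settings. The slide as a block could not be fitted, since each slide held only diseased or only other GMP arrays. With the condition as a block, GMP minus LSK taken within each of the 6 conditions (chosen after seeing the data), 1149 genes passed the interaction test, 1014 of them among the 1765, and 50 of the 59 named genes kept that call. The deviations of the GMP and LSK arrays of a condition from their group means correlated at 0.19 to 0.30 for the 4 conditions without disease. For both diseased conditions the value was -0.0080, which is a single value, since deviations from a mean of 2 arrays mirror each other. These values do not settle whether conditions should be paired. The interaction p-values given above come from the fit without pairs.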

Other observations

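Zinc finger genes recurred among those below the comparators, a set chosen after its values were seen. Of 307 tested genes named Zfp and a number, most of which encode DNA-binding proteins with zinc fingers, 81 fell in diseased GMPs (26.4%) and 27 rose, against 7.06% and 8.12% of all genes. Both diseased arrays lay below the 4 comparators for 124 of the 307 and above them for 70, against 15.5% and 28.9% of all genes. The median difference was -0.21, against 0.14 over all genes. In LSK cells 15 of the 307 fell, a share near the 4.38% of all genes, and the median difference was -0.01.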
